A study of Homo sapiens with 12 samples.

Results

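The Kbr effect on a gene is its log2 level in HK-2 cells given Kbr minus its level in control cells of the same time point. The change of that effect is the value at 48 h minus the value at 24 h, taken within each replicate number. All 12 arrays of the series enter it, 3 in each of 4 groups. HK-2 is an immortalised line from human proximal tubule epithelium, and every culture is of this 1 line. The groups were cells given a high dose of Kbr for 24 h, cells given it for 48 h, and vehicle cultures of each time. The labels give neither the dose in units nor the vehicle's name. All groups shared the same medium, a mix of DMEM and Ham's F12 with EGF, hydrocortisone, insulin, transferrin and selenite. The series set out to find signatures of toxicity among kidney toxicants. Values are deposited log2 GCRMA intensities, where a step of 1 is a 2-fold difference. The measure covers the 10574 genes that had a probe set for a single gene with log2 over 4 in at least 3 arrays, of 19775 genes so represented.

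A change of effect can come from either side of the comparison. The Kbr part is the Kbr level at 48 h minus that at 24 h, and the control part is the control level at 24 h minus that at 48 h. The parts add up to the change. A gene can thus gain in its Kbr effect because it went up in treated cells, or because it went down in the controls while treated cells held their level. The changes, the parts and the effects at each time share arrays, so values set side by side below are not independent of each other.

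Cells under chemical stress switch on several programmes that follow each other. The unfolded protein response senses misfolded protein in the endoplasmic reticulum through the sensors IRE1, PERK and ATF6. It raises chaperones such as HSPA5 (BiP) and, through ATF4, genes for amino acid supply and the death-linked factor DDIT3 (CHOP). NRF2 raises antioxidant enzymes, and metallothioneins bind zinc and other metals. Interferon raises a set of antiviral genes, among them the IFIT and IFITM families. Proximal tubule cells in the kidney reabsorb solutes and burn fatty acids.

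The effect changed in 2140 genes, which is 20.2% of those tested (limma, adjusted p under 0.05, two-sided). It became more positive in 934 (8.83%) and more negative in 1206 (11.4%). The change was at least 2-fold in 497 of them, 126 more positive and 371 more negative. In 2139 of the 2140 all 3 replicates had the same sign, against 6262 of all tested genes (59.2%). The call was made on these same 3 differences and largely fixes their sign, so this is no separate support. The effect grew with an unchanged sign in 1933 called genes (90.3%, against 70% of all tested genes), shrank in 22 and turned its sign in 185. The effect itself passed in 5072 genes at 24 h (48%), 1963 higher and 3109 lower, and in 7338 at 48 h (69.4%), 3310 higher and 4028 lower. The quantile-normalized values split into 3035 higher and 2469 lower genes at 24 h and into 4244 and 3436 at 48 h. Median centring gave 2551 and 2588 at 24 h.

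The Kbr part was the larger one in 1331 of the 2140 genes (62.2%, against 56.2% of all tested genes), and the control part in 809. Among genes that became more negative the Kbr part was the larger in 825 of 1206. Among genes that became more positive it was the larger in 506 of 934. On their own, Kbr cultures changed from 24 h to 48 h in 3571 genes (33.8%) and control cultures in 2202 (20.8%). Within the 2140, 1149 genes changed in the Kbr cultures alone, 590 in the control cultures alone, and 199 in both in opposite directions. Another 68 changed in both in the same direction, and 134 passed in neither part. The median size of the part was 0.44 log2 for Kbr and 0.28 for controls, against 0.23 and 0.18 over all tested genes. Genes called for the sum of the parts have larger parts by that choice, so the comparison with all tested genes is no separate result.

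**Figure D1:**
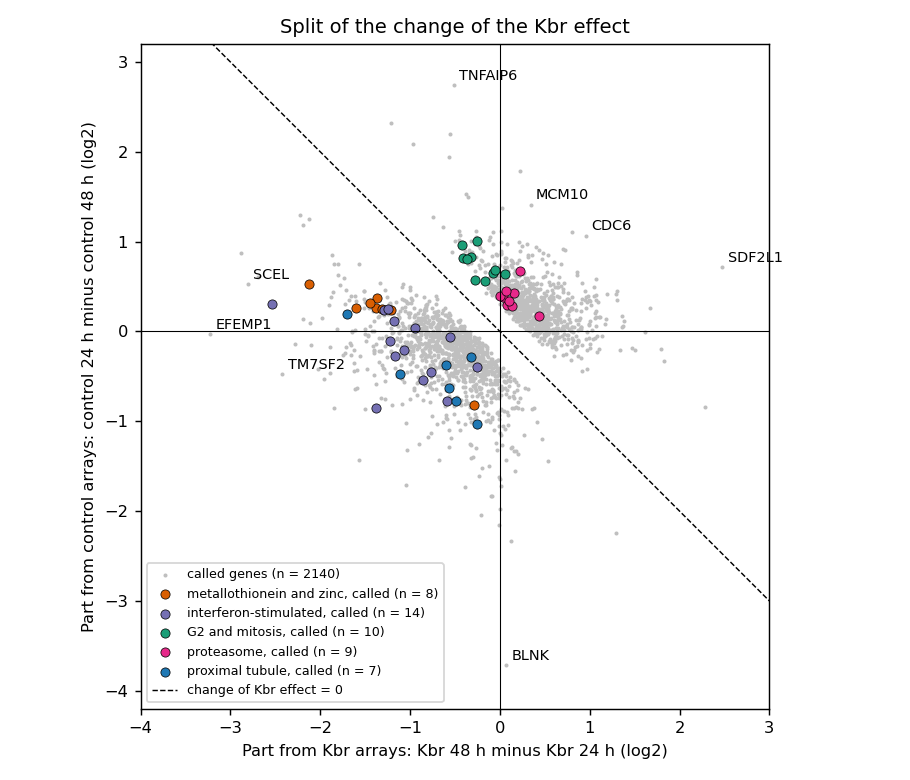
Each point is a gene, with the Kbr part (Kbr 48 h minus Kbr 24 h, log2) on the x axis and the control part (control 24 h minus control 48 h, log2) on the y axis; grey points are the 2140 called genes, coloured points are called members of 5 gene lists, and the dashed line marks a change of 0. Called metallothionein genes lie to the left, where Kbr cultures fell, and called proteasome and mitosis genes lie above, where control cultures fell.

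Kbr 48 h replicate 3 stood apart from the other arrays. Its genes lay 0.29 log2 from the group mean (root mean square), against 0.164 to 0.228 in the other 11 arrays. Among 203 genes whose change exceeded 1 in both other replicates, the median was 1.42 there and 0.55 in replicate 3. Genes chosen on a pair of replicates tend to be lower in the remaining one. The same choice gave 1.39 and 1.57 for replicate 1 (54 genes) and 1.41 and 1.23 for replicate 2 (62 genes). Those choices used replicate 3 itself, so they admit other genes and are not a like comparison. How much of the shortfall in replicate 3 comes from the choice was not tested. For replicate 3 the medians differed in the Kbr part, with a median of 1.09 in the other replicates and 0.33 in replicate 3. The control part had medians of 0.35 and 0.21. For the 299 genes below -1 in both other replicates the median was -1.42 there and -1.15 in replicate 3, beside -1.43 and -1.27 for replicate 1 and -1.45 and -1.33 for replicate 2. In replicate 3 29 of the 203 rises had the opposite sign, and 9 of the 299 falls.

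Without Kbr 48 h replicate 3 the effect changed in 3527 genes (33.4%), 1837 more positive (17.4%) and 1690 more negative (16%). Of the 2140, 2085 stayed called with the same sign and 55 were lost. The largest of the 55 were CFAP300 (-1.27 with all arrays and -1.21 without that array, adjusted p = 0.0504) and ZNF557 (1.22 with all arrays, adjusted p = 0.0536 without it). The 1442 gained genes were 922 more positive and 520 more negative. Other single arrays moved the count as well. It fell to 1339, 1134 and 1208 without Kbr 24 h replicates 1, 2 and 3, and to 1316 and 1104 without Kbr 48 h replicates 1 and 2. It fell to 1397 and 1012 without control 24 h replicates 2 and 3, and to 1326 and 1201 without control 48 h replicates 1 and 2. With the replicate numbers ignored, 590 genes passed (5.58%), all of them among the 2140. Of these, 221 (2.09%) were more positive and 369 (3.49%) more negative. A background given below is the share of all tested genes in the same comparison, direction and setting. It rises without Kbr 48 h replicate 3 and falls with the replicate numbers ignored, so list counts in different settings have different backgrounds.

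Many transcripts fell in Kbr cultures between 24 h and 48 h while their level in controls held, rose or fell by less. EFEMP1, which encodes a secreted protein of the extracellular matrix, was one of them. Its brightest probe set read 8.42, 8.33 and 8.28 in replicates 1 to 3 of control 24 h and 8.26, 8.53 and 8.32 in control 48 h. Kbr arrays read 6.64, 5.69 and 6.35 at 24 h and 2.84, 2.39 and 3.77 at 48 h. The controls did not separate by time, and the Kbr groups did not overlap. The Kbr effect went from -2.12 to -5.37, a change of -3.26 (SE 0.42, adjusted p = 0.00319), and -3.64 without Kbr 48 h replicate 3. Kbr 48 h replicates 1 and 2 lie below the array medians of 2.89 to 2.96 over all probe sets, near the bottom of the scale, so the fall at 48 h is read as a lower limit. For a second EFEMP1 probe set the change was 0.42 (adjusted p = 0.362).

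TM7SF2, a sterol reductase of cholesterol synthesis, also fell in Kbr cultures, while its controls rose by 0.48. It read 8.71, 8.05 and 7.99 in control 24 h, 9.02, 8.53 and 8.63 in control 48 h, 6.22, 6.10 and 6.65 in Kbr 24 h and 4.20, 3.71 and 3.81 in Kbr 48 h. Every Kbr 48 h array was below every Kbr 24 h array, by more than the spread in either group. Kbr 48 h replicates 2 and 3 lie under the filter's log2 4. The change of TM7SF2 was -2.90 (SE 0.25, adjusted p = 0.00204). SCEL, sciellin of the epithelial cell envelope, read 6.51, 7.25 and 6.29 in Kbr 24 h and 3.48, 4.44 and 3.71 in Kbr 48 h. Its controls went from 10.19, 10.70 and 9.48 to 9.56, 10.00 and 9.23, and its change was -2.28 (adjusted p = 0.00206). CYS1, a protein of the primary cilium, had a change of -2.35 with an SE of 0.15 (adjusted p = 0.000578). Its Kbr arrays went from 8.98, 8.41 and 8.26 to 7.27, 6.38 and 6.34 while its controls went from 11.11, 10.57 and 10.24 to 11.42, 11.16 and 10.72.

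Metallothioneins were already lower with Kbr at 24 h and lower still at 48 h. Of 12 metallothionein and zinc genes tested, 8 became more negative (66.7%, background 11.4%) and 0 more positive. The median change was -1.03 against 0.01 over all tested genes. The 8 are MT1E, MT1F, MT1G, MT1H, MT1M, MT1X, MT2A and the vesicular zinc exporter SLC30A2. The Kbr effect itself was called lower in 8 of the 12 at 24 h and in 9 at 48 h, with medians of -0.49 and -1.55. Of all 10574 tested genes it was called lower in 3109 at 24 h and in 4028 at 48 h. The medians by replicate were -1.23, -1.10 and -0.70. Metallothionein genes are near-identical copies, and their probe sets may read each other's transcripts, so the 7 are not 7 separate observations. Without Kbr 48 h replicate 3 the list had 9 more negative (background 16%), and 5 passed with the replicate numbers ignored (background 3.49%).

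MT1M read 9.81, 9.20 and 9.87 in control 24 h and 9.36, 8.87 and 9.30 in Kbr 24 h. The Kbr array was the lower one in each pair (effect -0.45, adjusted p = 0.0332). At 48 h it read 9.22, 8.81 and 9.25 in controls and 7.00, 6.48 and 7.67 in Kbr cultures, an effect of -2.04. The change was -1.59 (SE 0.21, adjusted p = 0.00343). MT1F went from 12.55, 12.42 and 12.72 in Kbr 24 h to 10.82, 10.68 and 11.38 in Kbr 48 h, and its change was -1.34 (SE 0.19, adjusted p = 0.00409). SLC30A2 differed from the metallothioneins in its parts. Its Kbr arrays read 6.26, 6.86 and 6.27 at 24 h and 6.49, 6.27 and 5.75 at 48 h, while its controls went up from 8.18, 8.55 and 7.70 to 9.09, 9.13 and 8.66. SLC30A1, the zinc exporter of the cell surface, had a change of 0.07 (adjusted p = 0.709), and MTF1, the zinc-sensing factor that drives metallothioneins, one of 0.20 (adjusted p = 0.24).

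Lipid genes with a changed effect mostly became more negative. In fatty acid oxidation 7 of 22 tested genes did (31.8%, background 11.4%) and 0 went the other way (median change -0.32). In cholesterol synthesis and uptake 6 of 21 did and 1, NSDHL, became more positive (together 33.3%, background 20.2%, median -0.08). CPT1A, which loads fatty acids for import into mitochondria, read 7.02, 7.16 and 7.01 in Kbr 24 h and 6.56, 6.58 and 5.99 in Kbr 48 h. Its controls read 7.55, 7.64 and 7.16 and then 7.81, 7.80 and 7.58, and the change was -0.97 (SE 0.15, adjusted p = 0.00519). All 3 Kbr arrays at 48 h lay below all other arrays of this gene.

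ECI1, an enoyl-CoA isomerase, changed by -1.01, and ACADVL, the dehydrogenase for very long chains, by -0.94. PPARA, a transcription factor of fatty acid oxidation, changed by -0.84, mostly on the control side: the Kbr part was -0.14 and the controls rose by 0.70. PPARA did not pass with the replicate numbers ignored. In cholesterol synthesis LSS, the lanosterol synthase, changed by -0.74 and FDPS, which makes farnesyl diphosphate, by -0.72. Other LSS probe sets gave -0.25 (adjusted p = 0.271) and -0.61 (adjusted p = 0.113). Counts ranged from 5 to 6 for fatty acid oxidation and from 4 to 5 for cholesterol over the omissions of 1 array other than Kbr 48 h replicate 3. They were 7 in both lists without that array (background 16%). With the replicate numbers ignored each list had 3 (background 3.49%).

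Another set of genes moved because control cells changed. BLNK, an adaptor protein known from B cell signalling, read 4.18, 4.63 and 2.68 in control 24 h and 7.59, 8.03 and 7.00 in control 48 h. It stayed at 2.67, 2.64 and 2.65 in Kbr 24 h and 2.65, 2.80 and 2.72 in Kbr 48 h. The Kbr values lie below the array medians, so they show no more than that signal was near the bottom of the scale. Control 24 h replicate 3 lay there too. BLNK passed the filter through its control arrays alone, so no size of its Kbr effect or of the change is given, and the result is the higher level in each control 48 h array than in the control 24 h array of its pair. SSTR5-AS1, an antisense transcript, was likewise near the bottom of the scale in every group but control 48 h, where it read 5.52, 4.40 and 4.85. It passed the filter only through those arrays, which favours genes high in that group, so no result is drawn from its level there. An array probe for an antisense transcript was not checked here for strand.

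SLC44A5, of the choline transporter-like family, moved on both sides. Its controls went from 7.71, 8.14 and 6.64 to 9.17, 9.52 and 8.92 and its Kbr arrays from 6.22, 6.30 and 5.90 to 5.09, 5.38 and 4.81. The change was -2.75 (SE 0.26, adjusted p = 0.00206). GJA1, connexin 43 of gap junctions, went from 10.82, 11.08 and 11.49 to 11.68, 12.13 and 12.12 in controls and from 9.36, 9.37 and 10.29 to 7.28, 7.44 and 8.76 with Kbr. Its change was -2.69 (SE 0.30, adjusted p = 0.00246). CHI3L1, a secreted chitinase-like protein, changed by -2.36, with a Kbr part of -1.03 and a control rise of 1.32. CFB, complement factor B, changed by -3.01 on its brightest probe set, whose ID carries a suffix for possible matches to other transcripts. Its probe set without such a suffix gave -0.08 (adjusted p = 0.661).

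**Figure D2:**
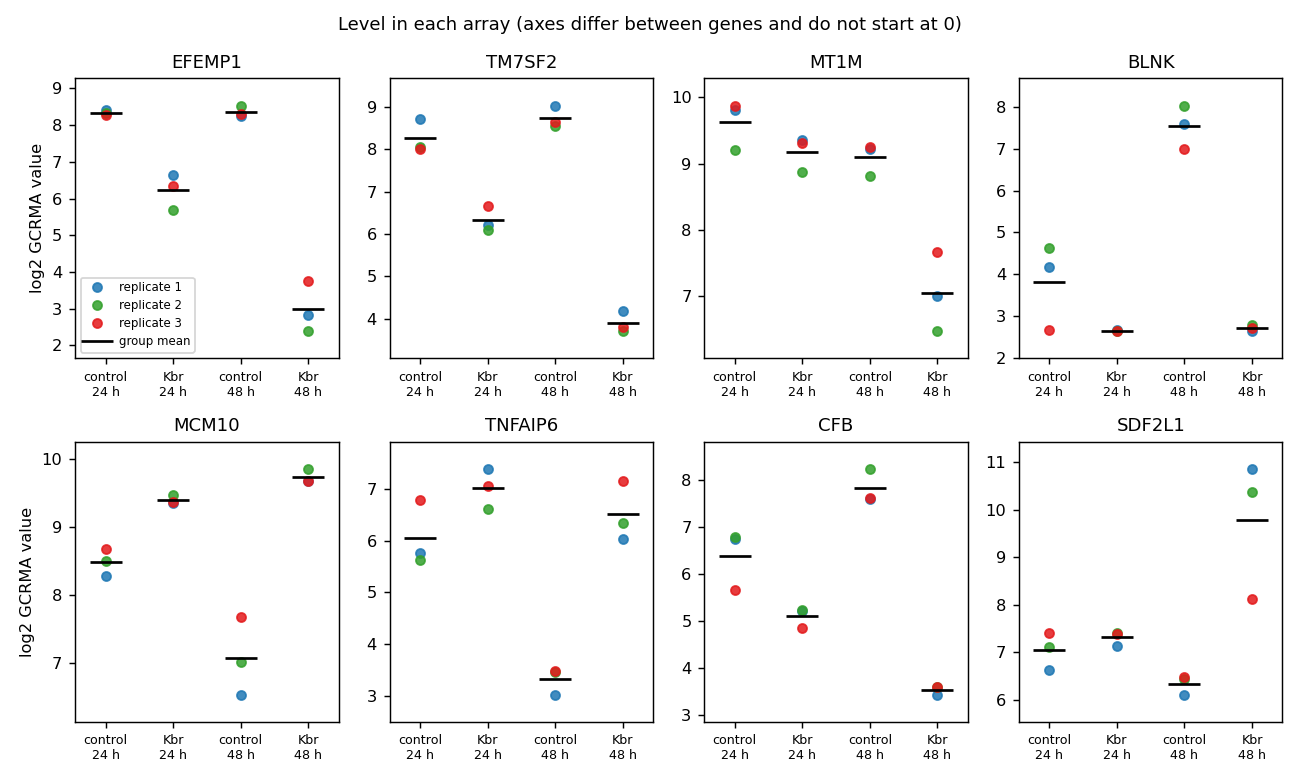
Log2 level of 8 genes in each of the 12 arrays, by group along the x axis (control 24 h, Kbr 24 h, control 48 h, Kbr 48 h); points are replicates, black bars are group means, and the y axes differ between panels and do not start at 0. EFEMP1, TM7SF2 and MT1M show the drop in Kbr 48 h, BLNK the rise in control 48 h, MCM10 and TNFAIP6 the drop in control 48 h, CFB a fall with Kbr beside a rise in controls, and SDF2L1 the low value of Kbr 48 h replicate 3.

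Cell division genes fell over time in both sets of cultures, and by more in the controls. Of 47 genes of G2 and mitosis, 42 were lower in control cultures at 48 h than at 24 h (background 12.2%), and 30 were lower in Kbr cultures (background 19.6%). The median was -0.63 in controls and -0.39 with Kbr. The Kbr effect became more positive in 10 of the 47 (21.3%, background 8.83%) and more negative in 0, with a median change of 0.23. The median effect went from 0.32 at 24 h to 0.66 at 48 h. Without Kbr 48 h replicate 3 the count was 12 more positive (background 17.4%) and 1 more negative. It was 4 more positive without Kbr 48 h replicate 2, and 2 with the replicate numbers ignored (background 2.09%).

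KIF2C, a kinesin that takes microtubules apart in mitosis, read 10.84, 11.03 and 11.16 in control 24 h and 10.25, 10.36 and 10.53 in control 48 h. With Kbr it read 11.63, 11.71 and 11.71 and then 11.77, 11.86 and 11.60. Controls fell without overlap, and the Kbr groups overlapped. The change was 0.69 (SE 0.14, adjusted p = 0.0138). NDC80, a kinetochore protein, showed a smaller change of 0.57 (SE 0.12, adjusted p = 0.0163), with controls at 9.74, 9.91 and 9.92 and then 9.05, 9.28 and 9.31. CDC20, which activates the anaphase-promoting complex, fell in both, by 0.97 in controls and by 0.42 with Kbr. Its change was 0.55 (adjusted p = 0.0181) and did not pass with the replicate numbers ignored (adjusted p = 0.285).

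DNA replication genes gave a similar count, 12 of 51 more positive (23.5%, background 8.83%) and 0 more negative, with a median change of 0.25. In controls 30 of the 51 fell (background 12.2%). With Kbr 48 h replicate 3 left out there were 17 more positive (background 17.4%) and 1 more negative. The count more positive was 22 without control 48 h replicate 3 and 6 without Kbr 48 h replicate 2. It was 5 where the numbers were ignored (background 2.09%). MCM10, an origin-firing factor, read 8.28, 8.51 and 8.69 in control 24 h and 6.54, 7.02 and 7.69 in control 48 h. Its Kbr arrays read 9.36, 9.47 and 9.37 and then 9.68, 9.86 and 9.69, and its change was 1.75 (SE 0.28, adjusted p = 0.00565). The controls fell by 1.41. The Kbr arrays were higher at 48 h in each pair, a Kbr part of 0.34 that did not pass (adjusted p = 0.211).

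CDC6, which loads the replicative helicase onto origins, moved on both sides. It fell from 9.27, 9.37 and 9.63 to 8.01, 8.34 and 8.73 in controls and went from 10.05, 10.29 and 10.26 to 11.55, 11.44 and 10.48 with Kbr. The change was 2.02 (SE 0.40, adjusted p = 0.0124) and 2.47 without Kbr 48 h replicate 3, the lowest array of its group. ORC6, a subunit of the origin recognition complex, changed by 0.79 (SE 0.11, adjusted p = 0.00439). DDIAS, a factor linked to survival after DNA damage, changed by 1.98 (SE 0.35, adjusted p = 0.00864), with controls from 6.98, 7.18 and 7.97 to 5.26, 5.73 and 6.58. PCNA, the sliding clamp of replication, did not pass (0.25, adjusted p = 0.205).

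HBEGF and some early response genes became more positive. HBEGF, a ligand of the EGF receptor, fell from 7.13, 7.17 and 8.06 to 6.08, 6.20 and 6.76 in controls. With Kbr it rose from 8.04, 7.60 and 8.60 to 8.76, 8.86 and 9.03, and the change was 1.91 (SE 0.22, adjusted p = 0.00272). Of 26 immediate early and MAPK feedback genes, 9 became more positive and 2, EGR1 and SPRY1, more negative (together 42.3%, background 20.2%, median 0.45). DUSP5, a phosphatase that shuts off ERK, read 11.08, 10.87 and 11.08 in Kbr 24 h and 12.28, 12.05 and 11.91 in Kbr 48 h, a change of 1.47 (SE 0.24, adjusted p = 0.00628). IER3, an early response gene, had no called Kbr effect at 24 h (0.06, adjusted p = 0.794) and one of 1.48 at 48 h. The count of 9 was 12 without Kbr 48 h replicate 3 (background 17.4%) and 6 with the replicate numbers ignored (background 2.09%). It was 5 without control 24 h replicate 3. The count of 2 was 0 with the replicate numbers ignored and 0 or 1 in each omission of 1 array other than Kbr 48 h replicate 3.

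TNFAIP6, a secreted hyaluronan-binding protein of inflammation, had the reverse pattern to BLNK. Its controls dropped from 5.76, 5.63 and 6.79 to 3.02, 3.46 and 3.47, while Kbr arrays read 7.39, 6.62 and 7.06 and then 6.02, 6.34 and 7.15. The change was 2.22 (SE 0.40, adjusted p = 0.00875), and 0.0569 was the adjusted p after 32 was added to the linear values. RND3, a small GTPase that loosens the actin skeleton, rose in Kbr cultures from 10.31, 10.41 and 10.80 to 11.91, 11.98 and 11.52. Its change was 1.75 (SE 0.29, adjusted p = 0.00707).

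Proteasome genes became more positive in 9 of 30 (30%, background 8.83%) and more negative in 0 (median 0.29). Their median Kbr part was -0.00, and the median fell by 0.29 in controls, where 16 of the 30 were lower at 48 h (background 12.2%). PSMD12, a lid subunit, read 10.71, 10.99 and 11.14 in control 24 h, 9.85, 10.37 and 10.61 in control 48 h, 11.98, 12.11 and 12.09 in Kbr 24 h and 12.13, 12.38 and 12.34 in Kbr 48 h. Its change was 0.89 (SE 0.16, adjusted p = 0.00921), but a second probe set gave -0.27 (adjusted p = 0.192). The count of 9 fell to 2 without Kbr 48 h replicate 2 and to 0 with the replicate numbers ignored. Replicate medians were close, at 0.26, 0.28 and 0.31.

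Antioxidant genes of the NRF2 type already had a median Kbr effect of 0.81 at 24 h, and it was 1.11 at 48 h. The effect became more positive in 7 of 28 and more negative in 1, ABCC3 (together 28.6%, background 20.2%). ABCC3 did not pass with probe sets of unsuffixed name preferred (-0.10, adjusted p = 0.813). NQO1, a quinone reductase, read 12.93, 13.08 and 12.59 in Kbr 24 h and 13.42, 13.51 and 13.30 in Kbr 48 h, with controls at 11.19, 11.30 and 11.14 and then 10.48, 10.67 and 10.81. Its change was 1.10 (SE 0.17, adjusted p = 0.00522). Other NQO1 probe sets gave 1.14 (adjusted p = 0.00702) and 0.43 (adjusted p = 0.0813). HMOX1, heme oxygenase, had an effect of 3.41 at 24 h and 3.77 at 48 h, and that difference did not pass (adjusted p = 0.341). SRXN1, sulfiredoxin, had 1.62 and 1.70 (adjusted p = 0.817). The count of 7 was 2 in 5 of the omissions of 1 array. It was 10 without Kbr 48 h replicate 3 (background 17.4%) and 2 with the replicate numbers ignored (background 2.09%). Cytosolic heat shock genes had 5 of 20 more positive (25%, background 8.83%) and 0 more negative. That count was 3 at the lowest when 1 array was left out and 2 with the replicate numbers ignored (background 2.09%). Ribosome biogenesis genes had 8 of 33 more positive (24.2%, background 8.83%) and 0 more negative. Their count was 16 without Kbr 48 h replicate 3 (background 17.4%) and 4 without Kbr 24 h replicate 1. It was 2 with the replicate numbers ignored (background 2.09%).

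Interferon-stimulated genes became more negative in 14 of 26 tested (53.8%, background 11.4%), and more positive in 0, with a median change of -0.64. Replicate medians were -0.73, -0.69 and -0.68. In Kbr cultures 18 of the 26 fell from 24 h to 48 h (background 19.6%). The count was 20 without Kbr 48 h replicate 3 (background 16%) and 8 without Kbr 24 h replicate 2. It was 3 with the replicate numbers ignored (background 3.49%). Members that passed showed 2 patterns.

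In the first, a rise was called at 24 h and not at 48 h. IFIT3, an antiviral protein, read 9.54, 9.46 and 9.58 in control 24 h and 10.57, 10.66 and 10.63 in Kbr 24 h, groups that do not overlap. At 48 h it read 9.28, 9.53 and 9.43 in controls and 9.25, 9.32 and 9.77 in Kbr cultures, which overlap. The Kbr effect went from 1.10 to 0.04, a change of -1.06 (SE 0.16, adjusted p = 0.00515). IFIT2, of the same family, went from 1.38 to 0.11 (change -1.28, adjusted p = 0.0144). It did not pass with the replicate numbers ignored (adjusted p = 0.100).

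In the second, a gene already lower at 24 h was lower still at 48 h. PSMB9, an immunoproteasome subunit, read 8.49, 8.65 and 8.42 in control 24 h and 8.24, 8.28 and 8.31 in control 48 h. Kbr cultures read 7.72, 7.93 and 7.48 and then 6.18, 6.60 and 6.60. The effect went from -0.81 to -1.82, and that change passed (SE 0.17, adjusted p = 0.00805). IFITM1, a membrane protein that limits virus entry, went from 9.30, 9.56 and 8.51 to 8.42, 8.88 and 8.29 with Kbr, while its controls rose by 0.78. Its change was -1.37 (SE 0.25, adjusted p = 0.0092), and it did not pass with the replicate numbers ignored (adjusted p = 0.125). ISG15, a ubiquitin-like interferon product, did not pass (-0.34, adjusted p = 0.217).

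**Figure D3:**
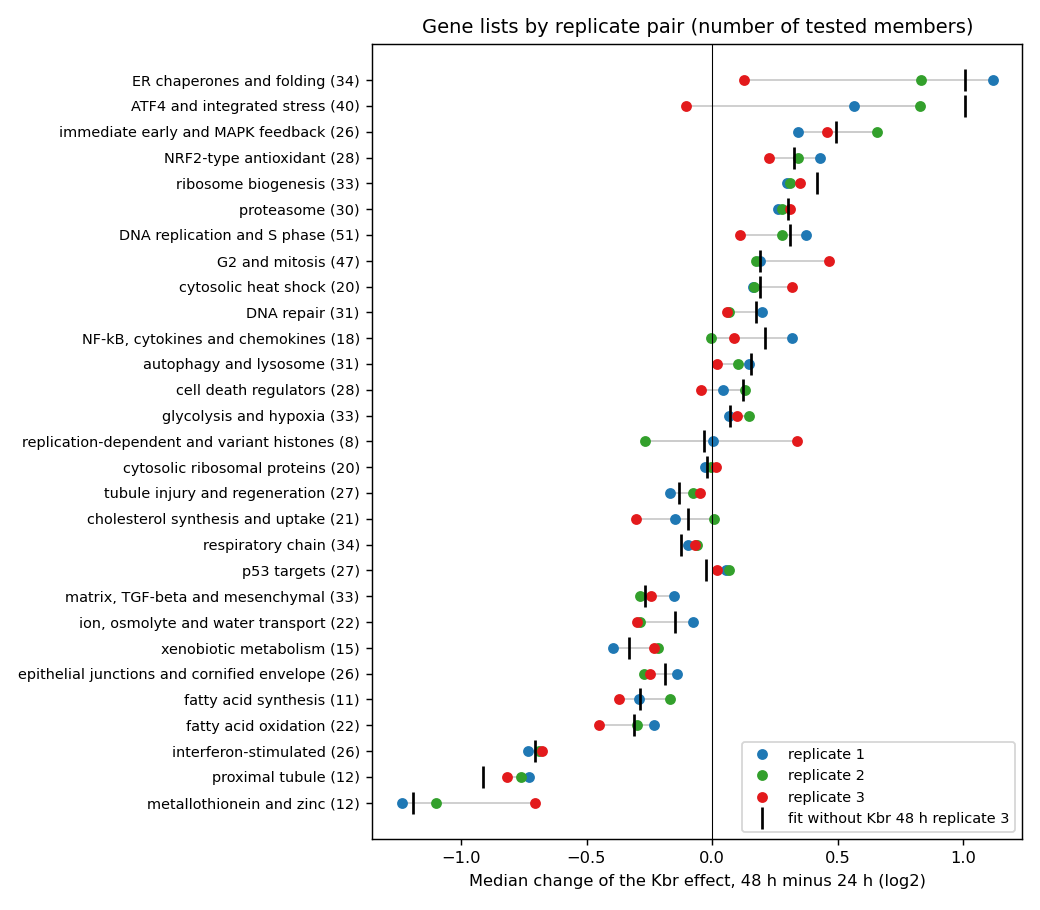
Median change of the Kbr effect (log2, x axis) over the tested members of each gene list (y axis, lists with at least 8 members), one point per replicate number, with a black tick for the fit without Kbr 48 h replicate 3. The points of replicate 3 for the ER chaperone list (0.13) and the ATF4 list (-0.11) lie far left of replicates 1 and 2, while the points of the interferon and proteasome lists lie close together.

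Genes of the unfolded protein response rose at 48 h in replicates 1 and 2 of Kbr, and most of their calls depended on whether replicate 3 was used. Several carry the ER stress element near their start, which the factors ATF6 and NF-Y are known to bind. The stretches below show it in members with marked values, 25 bases to each side, 5′ to 3′ on the gene's strand, with the element in capitals. They come from RefSeq promoters on GRCh38.p14. HSPA5 lies at chr9:125241366-125241434 on the minus strand, HSP90B1 at chr12:103930191-103930259 on the plus strand, XBP1 at chr22:28800578-28800646 on the minus strand and CRELD2 at chr22:49918529-49918597 on the plus strand, where the element runs in reverse.
HSPA5: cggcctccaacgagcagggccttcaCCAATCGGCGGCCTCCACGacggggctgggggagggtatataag
HSP90B1: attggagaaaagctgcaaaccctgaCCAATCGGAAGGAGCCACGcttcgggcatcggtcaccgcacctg
XBP1: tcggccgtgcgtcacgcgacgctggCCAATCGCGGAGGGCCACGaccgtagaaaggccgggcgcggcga
CRELD2: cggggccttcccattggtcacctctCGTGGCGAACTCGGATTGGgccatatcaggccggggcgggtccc

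The element was searched on both strands as CCAAT, 9 bases of any kind and CCACG. It stood within 250 bases upstream of the start in 7 of the 31 ER chaperone and folding genes that matched a promoter (22.6%), of 34 tested. Among all 27305 promoters 22 held it (0.0806%). The 7 genes did not move alike: without Kbr 48 h replicate 3 the change passed in HSPA5, HSP90B1, XBP1, CRELD2 and ERO1B, and not in CALR (0.08, adjusted p = 0.743) or CANX (0.24, adjusted p = 0.0945). A match describes these letters only, and binding was not measured. The CCAAT box alone was held by 33% of all promoters and by 31 of 40 G2 and mitosis genes with a promoter (77.5%).

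With all arrays, 7 of 34 ER chaperone and folding genes became more positive and 1, the protease MBTPS1, more negative (median change 0.71). Together these are 23.5%, close to the 20.2% of all tested genes, but the directions differed. The background for the 7 is 8.83% and for the 1 it is 11.4%. Called or not, the change was above 0 in 33 of the 34 and below 0 in 1. Over all tested genes it was above 0 in 5401 and below 0 in 5173. Without Kbr 48 h replicate 3 there were 24 more positive and 1 more negative (median 1.01), where 17.4% of all tested genes were more positive. The list's medians by replicate were 1.12, 0.83 and 0.13. At 24 h the median Kbr effect was 0.03, and at 48 h it was 0.69, or 1.29, 0.86 and 0.08 in replicates 1, 2 and 3. The count with all arrays dropped to 0 without Kbr 24 h replicate 2 and was 4 with the replicate numbers ignored (background 2.09%).

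HSPA5, the main ER chaperone, read 13.05, 12.92 and 13.40 in control 24 h, 13.86, 13.71 and 13.71 in Kbr 24 h and 13.20, 12.80 and 13.05 in control 48 h. In Kbr 48 h it read 15.40 and 15.09 in replicates 1 and 2 and 13.99 in replicate 3. Replicates 1 and 2 stood well above every other array and replicate 3 just above. The change was 1.17 (SE 0.41, adjusted p = 0.0731) with all arrays and 1.64 (SE 0.17, adjusted p = 0.000911) without that array. HERPUD1, which helps clear misfolded ER protein, read 13.26, 13.22 and 10.50 in Kbr 48 h beside 11.21, 10.92 and 10.71 in control 48 h. In replicate 3 the Kbr array was thus below its control, and the change was 1.49 (adjusted p = 0.169) or 2.34 without it (adjusted p = 0.000362).

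SDF2L1, a partner of HSPA5, had the largest rise called with all arrays. It read 6.63, 7.10 and 7.41 in control 24 h, 7.13, 7.40 and 7.39 in Kbr 24 h, 6.10, 6.43 and 6.47 in control 48 h and 10.86, 10.37 and 8.12 in Kbr 48 h. All 3 Kbr 48 h arrays were above all others, with replicate 3 the lowest of them. The change was 3.19 (SE 0.80, adjusted p = 0.0265) and 4.12 without Kbr 48 h replicate 3 (SE 0.27, adjusted p = 0.000362). It did not pass without Kbr 24 h replicate 1 or 2, Kbr 48 h replicate 2, control 24 h replicate 2 or 3, or control 48 h replicate 1 or 2 (adjusted p from 0.0524 to 0.0738). XBP1, the factor that IRE1 splices, changed by 1.04 (adjusted p = 0.0864) or 1.47 without that array (adjusted p = 0.000898). CRELD2 gave 1.04 (adjusted p = 0.136) and 1.56 (adjusted p = 0.00103), and HSP90B1, the ER paralog of HSP90, 0.68 (adjusted p = 0.0795) and 0.94 (adjusted p = 0.00244).

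The ATF4 and integrated stress list rested on that array even more. With all arrays 1 of 40 genes, GDF15, became more positive and 1, CBS, more negative (together 5%, background 20.2%). CBS kept its call in 5 of 12 omissions of 1 array. Other CBS probe sets gave -1.53 (adjusted p = 0.00695) and -0.06 (adjusted p = 0.799). There were 27 and 1 with that array left out (backgrounds 17.4% and 16%). With the replicate numbers ignored there were 1 and 0 (backgrounds 2.09% and 3.49%). The list's medians were 0.56, 0.83 and -0.11 by replicate. Its median Kbr effect at 48 h was 0.84, 0.87 and -0.02. In the same list the Kbr cultures themselves rose from 24 h to 48 h in 19 of 40 genes with all arrays (background 14.2%) and in 36 without that array (background 19.6%).

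ATF3, a stress transcription factor, read 6.52, 6.53 and 6.68 in Kbr 24 h and 12.17, 11.48 and 7.94 in Kbr 48 h. Its controls read 4.76, 3.40 and 5.58 and then 6.74, 5.53 and 5.37. The change was 2.65 (SE 1.30, adjusted p = 0.175) or 4.05 without Kbr 48 h replicate 3 (SE 0.68, adjusted p = 0.00409). DDIT3 read 12.91, 12.83 and 9.55 in Kbr 48 h, and control 48 h replicate 1 was itself high, at 10.74 beside 8.93 and 8.87. Its change was 1.32 (adjusted p = 0.355) and 2.31 (adjusted p = 0.0204). PPP1R15A, which reverses the translation block, changed by 1.60 (adjusted p = 0.0751) and 2.27 (adjusted p = 0.000339).

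GDF15, a secreted stress cytokine, read 10.37, 10.48 and 10.47 in control 24 h, 11.07, 11.19 and 10.92 in Kbr 24 h, 11.62, 10.83 and 11.37 in control 48 h and 13.72, 13.54 and 12.77 in Kbr 48 h. Its change was 1.44 (SE 0.33, adjusted p = 0.0198). Without Kbr 24 h replicate 1, Kbr 48 h replicates 1 or 2, or control 24 h replicate 3 it did not pass (adjusted p from 0.0505 to 0.059). The change of the ATF4 transcript itself did not pass (-0.00 with all arrays, adjusted p = 0.986, and 0.11 without Kbr 48 h replicate 3, adjusted p = 0.604). ATF4 is known to be controlled by translation, which these arrays do not read.

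**Figure D4:**
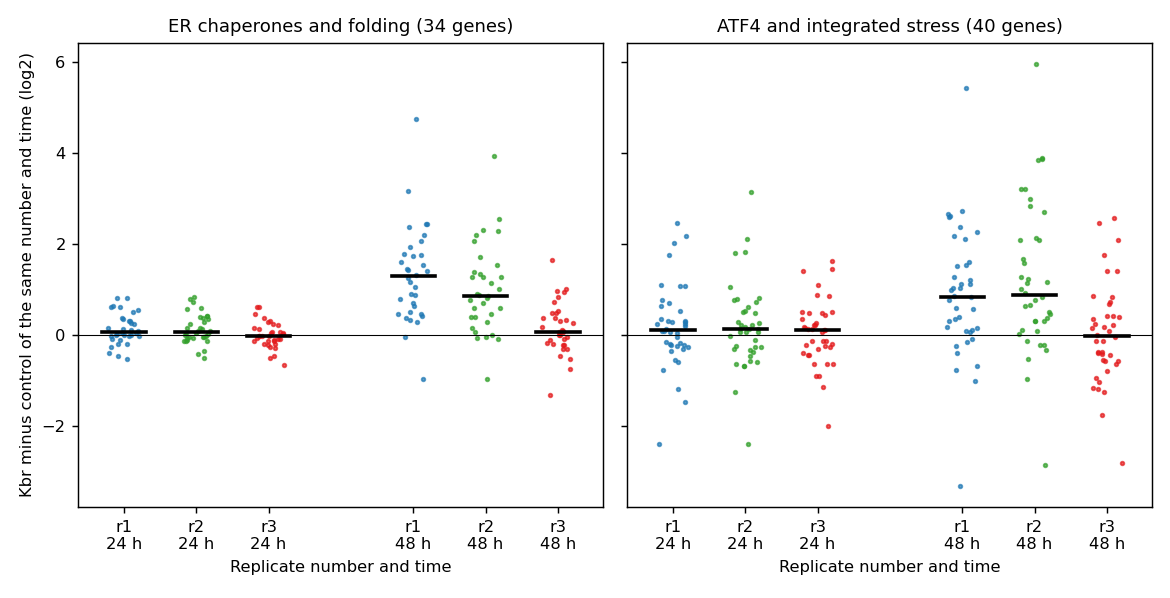
Kbr minus control (log2, y axis) for each of 34 ER chaperone and folding genes and 40 ATF4 and integrated stress genes, by time and replicate number (x axis), with bars at the medians. At 24 h the replicates of the ER list lie near 0, and at 48 h its medians are 1.29, 0.86 and 0.08, so replicate 3 stays near its 24 h level.

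Genes known from the proximal tubule mostly became more negative, although few were measurable in this line. Of 38 such markers on the array 12 passed the filter. The other 26 did not, so the label is borne out by only part of its marker list. Of the 12, 7 became more negative (58.3%, background 11.4%) and 0 more positive (median -0.86), with replicate medians of -0.73, -0.76 and -0.82. The median Kbr part was -0.29, and 5 of the 12 rose in controls (background 8.62%), with a median of 0.39. Without Kbr 48 h replicate 3 there were 8 (background 16%), and 2 passed with the replicate numbers ignored (background 3.49%).

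CDH6, the cadherin of the early proximal tubule, read 11.94, 11.88 and 11.30 in Kbr 24 h and 9.94, 10.34 and 9.74 in Kbr 48 h. Its controls read 12.98, 12.79 and 12.53 and then 12.43, 12.98 and 12.30, and the change was -1.51 (SE 0.20, adjusted p = 0.00343). A further CDH6 probe set gave 0.06 (adjusted p = 0.869), while its remaining ones passed as more negative. ENPEP, a brush border peptidase, moved more on the control side, from 9.65, 9.21 and 8.45 to 10.13, 10.07 and 9.45, beside 8.87, 8.53 and 7.87 and then 8.47, 8.02 and 7.34 with Kbr. Its change of -1.26 (SE 0.14, adjusted p = 0.00241) did not pass with the replicate numbers ignored (adjusted p = 0.169). PAX8, a transcription factor of the kidney lineage, had a change of 0.01. HAVCR1 (KIM-1), a known marker of tubule injury, became more negative, with a change of -0.92 (adjusted p = 0.01, and 0.0515 with the replicate numbers ignored). Of 27 tubule injury genes 3 became more positive and 7 more negative, together 37% against 20.2% of all tested genes. The 3 are a share close to the 8.83% of all tested genes. The counts were 7 and 7 without Kbr 48 h replicate 3 (backgrounds 17.4% and 16%). With the replicate numbers ignored they were 1 and 1 (backgrounds 2.09% and 3.49%).

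Opposite calls at the 2 times were rare. In 13 of the 2140 genes the Kbr effect passed at both times with opposite signs, 5 from negative to positive and 8 from positive to negative. DDX5, an RNA helicase, read 8.04, 7.65 and 7.81 in control 24 h and 8.27, 8.03 and 8.33 in Kbr 24 h, then 8.57, 8.51 and 8.21 in control 48 h and 7.48, 7.11 and 7.54 in Kbr 48 h. Kbr cultures were the higher in each pair at 24 h and the lower in each pair at 48 h. The effect went from 0.37 to -1.05 (change -1.43, SE 0.18, adjusted p = 0.00302). METTL17, a protein of the mitochondrial ribosome, went the other way, from -0.20 to 0.32 (change 0.52, SE 0.09, adjusted p = 0.00847). Its arrays read 9.52, 9.55 and 9.44 in control 24 h, 9.27, 9.34 and 9.29 in Kbr 24 h, 9.41, 9.30 and 9.35 in control 48 h and 9.67, 9.68 and 9.68 in Kbr 48 h.

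**Figure D5:**
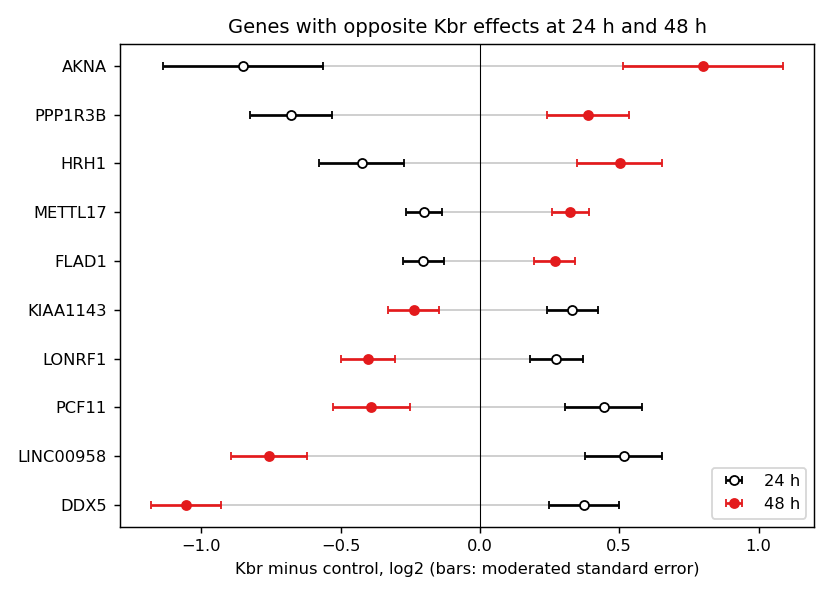
Kbr effect at 24 h (open) and 48 h (filled red) in log2 on the x axis, with the moderated standard error of each, for the 10 genes named among the 13 with opposite calls (y axis). AKNA runs furthest to the right, from -0.85 to 0.80, and DDX5 furthest to the left, from 0.37 to -1.05.

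Among the other lists, extracellular matrix genes had 8 of 33 more negative and 1, CCN2, more positive (together 27.3%, background 20.2%). There were 4 more negative without Kbr 48 h replicate 2 and 3 with the replicate numbers ignored (background 3.49%). LOXL2, which crosslinks collagen, changed by -1.01 (SE 0.13, adjusted p = 0.00348). Glycolysis and hypoxia genes had 4 of 33 more positive (12.1%, against 8.83% of all tested genes), among them the glucose carrier SLC2A1 with 0.94 (adjusted p = 0.0152). That count was 1 without Kbr 24 h replicate 2. Without Kbr 48 h replicate 3 there were 6 more positive (background 17.4%) and 3 more negative (background 16%). The p53 list was mixed, with 5 of 27 more positive (background 8.83%) and 3 more negative, the latter a share close to the 11.4% of all tested genes. With the replicate numbers ignored this list had 2 and 2 (backgrounds 2.09% and 3.49%). In it CDKN1A, the cell cycle inhibitor p21, changed by 1.05 (adjusted p = 0.0139) and TP53INP1, an autophagy and stress protein, by -1.23 (adjusted p = 0.00846). Ribosomal protein genes had 0 of 20 in either direction and histones 0 of 8.

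Few markers of any cell type were measurable. The filter kept 12 of 38 proximal tubule markers on the array and 3 of 9 fibroblast markers, beside 10574 of 19775 genes. Over all proximal tubule markers on the array the summed log2 level was 166 to 169 in Kbr 24 h, 163 to 164 in Kbr 48 h, 174 to 181 in control 24 h and 181 to 183 in control 48 h. The 9 fibroblast markers summed to 42.9 to 44.2, 38.6 to 40.1, 46.6 to 47.7 and 45.5 to 46.1 in the same order, and LUM and DCN of the 3 tested became more negative (-1.22 and -0.91). Each of the 2 lost its call without Kbr 24 h replicate 1 or 2, Kbr 48 h replicate 1 or 2 or control 48 h replicate 2, and LUM also without control 24 h replicate 3 (adjusted p from 0.0512 to 0.066). Of markers of other nephron segments 4 of 13 on the array were tested, and the sodium channel subunit SCNN1A became more negative (-1.17, adjusted p = 0.00673). A second SCNN1A probe set gave -0.21 (adjusted p = 0.391). Of squamous epithelium markers 3 of 11 were tested and 0 passed. Of the endothelial and leukocyte markers 1 of 8 was tested, the receptor TEK, and PECAM1 and PTPRC did not pass the filter. In bulk RNA, fewer cells of a type and less RNA per cell cannot be told apart, and the part of these markers in the results was not tested. As a check of RNA quality, the array's 18S and 28S probe sets had mean paired changes of 0.02 and 0.07. Single pairs varied, at 0.57, -0.36 and -0.15 for 18S and 0.28, -0.28 and 0.22 for 28S in replicates 1 to 3. Both were higher with Kbr at 24 h and 48 h, by 0.49 and 0.51 for 18S and by 0.38 and 0.46 for 28S. The 3′ to 5′ differences of GAPDH and ACTB changed by -0.02 and 0.06 (exact sign-flip p of 0.25 or more; 3 pairs cannot go below 0.25).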

How the data were processed

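RNA from 12 HK-2 cultures, 4 groups of 3 biological replicates, was read on Affymetrix arrays. The authors deposited log2 intensities from GCRMA, a method that corrects background by probe sequence, normalizes arrays and summarises probe sets, per the submitters' processing notes, which name no version. Of 54675 probe sets, 41091 had 1 gene symbol in GEO's platform annotation, 1801 had several and 11721 none, besides 62 control probe sets. Each gene was read from the brightest of its single-gene probe sets (by mean), kept with log2 over 4 in at least 3 arrays (10574 tested, 9201 left out). Precision is limited by the number of arrays.

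limma 3.58.1 (R 4.3.3) was fitted to all arrays with replicate number as a block, two-sided, with Benjamini-Hochberg adjustment over the tested genes and a threshold of 0.05. Deviations from group means correlated at 0.232 to 0.633 in the 18 pairs of arrays of the same number and at -0.378 to -0.004 in the 36 others, so the numbers were taken to pair the arrays. On simulated data (10574 genes), 49 of 100 changes of 1 log2 and 83 of 100 of 2 log2 were recovered. Only 200 genes were changed there, and no array stood apart as Kbr 48 h replicate 3 did. These rates need not hold for the real arrays.

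The members and lists were chosen with earlier results of these data known. The rule for named genes took, among called genes with 1 sign in all replicates, the 12 largest and 12 smallest, the 5 largest each way with larger control parts, the 5 largest each way with opposite effects, the 5 largest that lost and 5 that gained a call without Kbr 48 h replicate 3, and 3 genes per list. Other list members named were chosen after their values were seen. A gene's probe sets were also compared, and 62 of 5192 genes with over 1 tested probe set were called both ways. Among the called genes it was 42 of 1114, and among the named genes HSPA4 and PSME4. Alternatives were other filters, probe rules, normalizations, priors, array weights and omissions of arrays. Promoter windows came from RefSeq.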

Additional observations from a re-analysis of the deposited data

Results flagged for a closer look

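The difference between the Kbr effects at 24 h and 48 h was tested in each gene by limma as an interaction, and it passed in 2140 genes. In 13 of these the Kbr effect passed at both times in opposite directions. From negative to positive went AKNA (change 1.65, from -0.85 to 0.80), PPP1R3B (1.07, from -0.68 to 0.39), HRH1 (0.93, from -0.42 to 0.50), METTL17 (0.52, from -0.20 to 0.32) and FLAD1 (0.47, from -0.20 to 0.27). From positive to negative went DDX5 (-1.43, from 0.37 to -1.05), LINC00958 (-1.27, from 0.52 to -0.76), PCF11 (-0.83, from 0.44 to -0.39), LONRF1 (-0.68, from 0.27 to -0.40) and KIAA1143 (-0.57, from 0.33 to -0.24). With the replicate numbers ignored AKNA (adjusted p = 0.0878), PPP1R3B (0.0937), HRH1 (0.0741), FLAD1 (0.0636), LINC00958 (0.0802) and LONRF1 (0.163) did not pass. When single arrays were left out, AKNA kept its call in 6 of 12 omissions (adjusted p up to 0.0688), PCF11 in 5 (up to 0.0605), HRH1 in 8 (up to 0.0591), FLAD1 in 9 (up to 0.0544) and KIAA1143 in 9 (up to 0.0534). The other 5 kept theirs in all 12. Second probe sets gave 0.25 for HRH1 (adjusted p = 0.526), 0.28 for FLAD1 (0.225), -0.05 for PCF11 (0.834) and 0.22 for KIAA1143 (0.364).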

How the results depend on the processing

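Without the replicate block 590 genes passed for the changed effect, 1813 for Kbr cultures over time and 426 for control cultures over time. With Kbr 48 h replicate 3 also left out, an alternative chosen after seeing the data, controls gave 564. Leaving out 1 array gave 1012 to 3527 genes for the changed effect, 2143 to 4392 for Kbr cultures, 977 to 2890 for controls, 3819 to 5703 for the effect at 24 h and 6704 to 7398 at 48 h. Leaving out replicate 1 in all groups gave 168, 1100, 303 and 3092 for the changed effect, Kbr cultures, controls and the effect at 24 h. Leaving out replicate 2 gave 0 (limma; 2111 at an unadjusted p under 0.05), 622, 57 and 2605, and leaving out replicate 3 gave controls 1431. No expression filter gave 1395 for the changed effect and 8858 for the effect at 24 h. Each probe set taken alone gave 3306, 5673 (Kbr cultures), 8309 (24 h) and 12893 (48 h), where more features are tested. Array weights gave 4093 and 5531 (Kbr cultures). An adjusted p under 0.01 gave 490, 1689, 744 and 3351 in the same order as for replicate 1, and a 2-fold minimum 497, 390, 163, 798 and 2488 (48 h). With probe sets of unsuffixed name preferred, HSPA4 turned to -0.77 (adjusted p = 0.0338) and MCL1 to 0.16 (adjusted p = 0.657). The cause of these moves was not tested beyond the tests' own construction.

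Of 111 called named genes, 109 kept their direction under each alternative in which they were tested (HSPA4 and MCL1 did not) and 66 kept their call in all 12 omissions of 1 array. Leaving out replicate 2 everywhere ended all 111 calls, no replicate block ended 52, no filter 42, quantile normalization 8 and median centring 1. Of the 111, 102 were tested with log2 over 6, 104 with the mean of probe sets and 103 with unsuffixed probe sets. The shift of the median over all tested genes under quantile normalization was from -0.06 to 0.08 for the effect at 48 h and from 0.01 to 0.03 for its change. Probe sets near the bottom of the scale, such as BLNK with Kbr, give only a lower limit on how far a level fell.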
